A study of Mus musculus with 2 samples.

Results

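Mesenchyme marked by Gata3 was examined in the lambdoid junction of the E11.5 mouse face, the tissue in which the nasal and maxillary prominences meet. Members were chosen by counts in 2 single-cell RNA libraries, with thresholds on unique molecular identifiers (UMIs). A member had at most 10% of its UMIs in mitochondrial genes, a sum of Prrx1, Prrx2 and Twist1 of 3 or more, at most 1 UMI of Epcam and 2 or more UMIs of Gata3. It also had 0 UMIs of Shox2, at most 1 each of Gsc, Pax7 and Emx2, and at most 2 of Sox9, genes high in other mesenchymal regions. There were 4343 members among 14860 barcodes in all. The Crect lacZ library held 1945 members and 3543 other mesenchyme cells, and the wild-type library held 2398 members and 3861 other mesenchyme cells.

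The first library came from Crect; ROSA26-lacZ embryos, in which Crect is a transgene that drives Cre recombinase in ectoderm and ROSA26-lacZ reports its activity. The second came from wild-type embryos, and both are given as strain C57BL/6J at age E11.5. Each library is a pool of trypsin-dissociated tissue from 4 to 5 embryos, read with the 10x Genomics 3' v2 kit, so each genotype has 1 library and the spread between embryos was not measured. The Crect lacZ library held 127765199 UMIs in 6894 barcodes and the wild-type library 126638790 UMIs in 7966 barcodes. The libraries shared 76 cell barcodes, of which 6 belonged to members.

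Gata3 and Gata2 are zinc-finger transcription factors that bind GATA motifs, and in the mouse loss of Gata3 disturbs facial growth. Msx1 and Msx2 are homeodomain repressors induced by bone morphogenetic proteins (Bmps), secreted ligands that act through Smad proteins in the outgrowth and fusion of the facial prominences. Id proteins, inhibitory Smads and Bambi are common readouts of Bmp signalling. Of the remaining label genes, Pmaip1 encodes Noxa, a Bcl2-family protein that promotes cell death, Cxxc4 encodes Idax, an inhibitor of Wnt signalling, and Tmem26 encodes a transmembrane protein.

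The promoters of Gata3, which defines the cells, of Msx2, the second gene of the label, and of Gata2, whose level differed with Gata3, are printed here. Each window runs from 250 bases before to 50 bases after a RefSeq transcript start on build GRCm38.p6, 5′ to 3′ on the gene's strand. The windows are chr2:9878551-9878850 (minus strand) for Gata3, chr13:53472731-53473030 (minus strand) for Msx2 and chr6:88198414-88198713 (plus strand) for one of the starts of Gata2. Capitals mark GGCGCC, a palindrome searched for as a binding sequence of Bmp-activated Smads. The motif GATAA, with TTATC for the opposite strand, was found 0 times in these windows. Other forms with the GATA core were not searched for, such as the GATAG near the end of the Gata3 window.
Gata3: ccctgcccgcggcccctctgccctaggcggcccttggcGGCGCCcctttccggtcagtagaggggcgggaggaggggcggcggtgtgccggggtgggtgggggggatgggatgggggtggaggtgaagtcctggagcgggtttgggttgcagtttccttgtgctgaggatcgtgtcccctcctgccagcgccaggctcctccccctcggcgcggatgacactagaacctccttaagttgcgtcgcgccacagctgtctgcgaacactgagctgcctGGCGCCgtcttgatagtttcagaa
Msx2: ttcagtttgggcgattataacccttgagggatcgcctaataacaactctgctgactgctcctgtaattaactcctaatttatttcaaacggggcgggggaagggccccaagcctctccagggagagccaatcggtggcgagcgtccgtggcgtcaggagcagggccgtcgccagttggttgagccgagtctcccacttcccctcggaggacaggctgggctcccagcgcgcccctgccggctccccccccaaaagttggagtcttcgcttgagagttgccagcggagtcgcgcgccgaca
Gata2: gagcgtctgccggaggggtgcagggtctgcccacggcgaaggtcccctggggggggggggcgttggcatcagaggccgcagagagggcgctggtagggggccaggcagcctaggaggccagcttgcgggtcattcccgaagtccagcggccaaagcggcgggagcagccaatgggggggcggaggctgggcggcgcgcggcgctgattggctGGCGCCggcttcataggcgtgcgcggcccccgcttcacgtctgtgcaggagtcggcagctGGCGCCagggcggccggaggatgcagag
The windows of Gata3 and Gata2 hold 2 copies of GGCGCC each and that of Msx2 holds 0. The window of the other Gata2 start, chr6:88193641-88193940, holds 0 copies of GGCGCC and 0 of GATAA or TTATC. Among 27025 mouse genes with a window, 13.4% held GGCGCC and 28.4% held GATAA or TTATC. Among the 49 matched of 77 genes later called higher in members than in Gata3-negative cells, 30.6% held GGCGCC, against 24.9% of 10032 matched genes tested. For GATAA or TTATC the shares were 16.3% and 19.0%. Among the 34 matched of 59 genes called higher than in all other mesenchyme GGCGCC was in 17.6% and GATAA or TTATC in 29.4%. The shares over all genes tested in that comparison were not computed, so these values have no matched background.

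In the GENCODE vM21 annotation of build mm10, Gata3 (ENSMUSG00000015619) spans chr2:9857078-9890034 and Msx2 (ENSMUSG00000021469) spans chr13:53466884-53473074. Gata2 (ENSMUSG00000015053) lies at chr6:88193891-88207032, Cxxc4 (ENSMUSG00000044365) at chr3:134236484-134262161 and Tmem26 (ENSMUSG00000060044) at chr10:68723646-68782650. Pmaip1 (ENSMUSG00000024521) lies at chr18:66458533-66465565, and all 6 are protein-coding.

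Gata3 was widespread in this mesenchyme. At least 1 UMI was found in 81.2% of Crect lacZ and 78.4% of wild-type mesenchyme cells, and 2 or more in 65.1% and 59.9%. The exclusions kept 54.4% of these Crect lacZ cells and 63.9% of these wild-type cells. Members made up 35.4% of Crect lacZ mesenchyme (exact Clopper-Pearson 95% interval 34.2 to 36.7) and 38.3% of wild-type mesenchyme (37.1 to 39.5), intervals that cover counting error only. Sox9 removed 16.6% of Crect lacZ and 2.48% of wild-type Gata3 cells, while Shox2 removed 15.9% and 19.9%. With each cell thinned to 5000 UMIs, members were 25.6% of Crect lacZ and 26.7% of wild-type mesenchyme. The label calls the cells distal, a position that dissociated cells do not give, so they are called here by their rule.

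Markers of other cell types were present at different levels in members. Macrophage markers summed to 14.2 UMIs per 1000000 (CPM) in Crect lacZ and 11.9 CPM in wild-type members, and those of crest glia to 9.09 and 6.86 CPM. Skeletal muscle markers summed to 13.3 CPM in Crect lacZ members against 39.7 CPM in other mesenchyme, and to 13.7 against 62.1 CPM in the wild-type library. Chondrogenic markers summed to 88.6 CPM in Crect lacZ members against 214 CPM in other mesenchyme, and to 70.8 against 78.3 CPM in the wild-type library, with Acan and Matn1 at 0 in members of both libraries. The muscle list holds Pax7 and the cartilage list Sox9, both of which the rule limits, and the bone list holds Dlx5. Neuron markers summed to 96.5 CPM in Crect lacZ members against 74.4 CPM in other mesenchyme, and to 104 against 93.1 CPM in the wild-type library. In cells with 0 Gata3 UMIs that met every other criterion, the neuron sums were above those of members. They were 103 CPM in Crect lacZ and 140 CPM in wild-type. Osteogenic markers summed to 89.7 CPM in Crect lacZ members against 61.8 CPM in other mesenchyme, and to 94.5 against 76.4 CPM in the wild-type library. Pax7 alone stood at 8.53 CPM in Crect lacZ members against 35.1 CPM in other mesenchyme, and at 7.58 against 58.2 CPM in the wild-type library. Sox9 stood at 26.6 against 114 CPM in Crect lacZ and at 20.1 against 30.4 CPM in wild-type. The lower muscle and cartilage sums are therefore tied to the rule and are not read as a trait of members. Neuron and bone sums were higher in members than in other mesenchyme of both libraries. Dlx5 alone stood at 44.8 CPM in Crect lacZ members against 23.3 CPM in other mesenchyme. In the wild-type library it stood at 42.5 against 28.3 CPM. The gap in the bone sum therefore lay largely in Dlx5 and is not read as a trait of members. The part of other cell types in the results was not tested. Erythroid markers, mainly haemoglobin RNA, summed to 2766 CPM in Crect lacZ and 13322 CPM in wild-type members.

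The label genes chose or describe the members, so their levels are given without a test. Gata3 stood at 315 CPM in Crect lacZ members against 149 CPM in other mesenchyme, and at 329.6 against 118 CPM in the wild-type library. Members held 2 to 28 Gata3 UMIs per cell in Crect lacZ (median 5) and 2 to 22 in wild-type (median 4). Msx2 stood at 219.5 CPM in Crect lacZ members, 88.3 CPM in other mesenchyme and 62.7 CPM in Gata3-negative cells, and at 286, 131 and 108 CPM in the same groups of the wild-type library, where Gata3-negative cells are those with 0 Gata3 UMIs that met every other criterion. Members were the highest group in both libraries.

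Pmaip1 had the widest proportional gap to the Gata3-negative cells among the remaining label genes. It stood at 90.6 CPM in Crect lacZ members, 44.1 CPM in other mesenchyme and 13.1 CPM in Gata3-negative cells, and at 132, 56.6 and 24.9 CPM in the same groups of the wild-type library. Cxxc4 stood at 46.8 CPM in Crect lacZ members, 26.7 CPM in other mesenchyme and 22.6 CPM in Gata3-negative cells, and at 59.9, 28.5 and 20.8 CPM in the same groups of the wild-type library. Tmem26, the least different of them, stood at 64.6 CPM in Crect lacZ members, 41.2 CPM in other mesenchyme and 37.3 CPM in Gata3-negative cells, and at 72.4, 42.5 and 42.0 CPM in the same groups of the wild-type library.

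**Figure D1:**
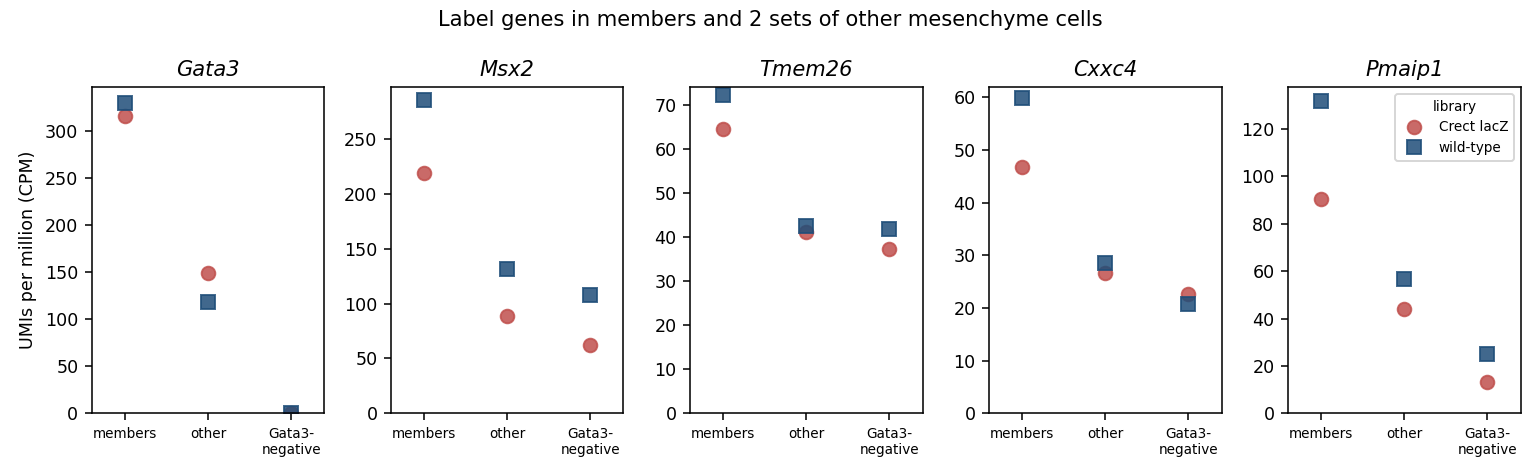
Levels of the 5 label genes (y axis, CPM of the summed counts, from 0) in members, other mesenchyme and Gata3-negative mesenchyme, with 1 point per library. Gata3 decided membership, so its gap is set by the rule, and Pmaip1 stands at 90.6 and 132 CPM in Crect lacZ and wild-type members against 13.1 and 24.9 CPM in their Gata3-negative cells.

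Few members held every label gene at this depth. Msx2, Tmem26, Cxxc4 and Pmaip1 were all detected in 15.7% of Crect lacZ members against 6.83% of other mesenchyme cells, and in 18.0% against 5.75% in wild-type. With cells thinned to 5000 UMIs, Msx2 was detected in 57.02% of Crect lacZ members against 28.4% of other mesenchyme cells, and in 67.4% against 38.8% in wild-type. Without thinning the shares were 81.6% against 55.4% in Crect lacZ and 85.6% against 61.8% in wild-type. Median depths were 16658 UMIs in Crect lacZ members against 18397 in other mesenchyme, and 12727.5 against 14468 in wild-type. Erythroid-like barcodes, which should lack Msx2, had it in 6.56% of Crect lacZ and 2.76% of wild-type thinned barcodes, at median depths of 12770 and 27722 UMIs.

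The threshold of 2 Gata3 UMIs fell within a gradual change. Among cells that met every other criterion, those with 2 Gata3 UMIs lie just inside and those with 1 just outside. Msx2 stood at 179.6 CPM inside and 106 CPM outside in Crect lacZ, and at 226 CPM inside and 183 CPM outside in wild-type. Pmaip1 stood at 49.0 CPM inside and 21.8 CPM outside in Crect lacZ, and at 68.3 CPM inside and 49.2 CPM outside in wild-type.

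Members varied among themselves with their level of Gata3. They were divided into 4 bins of nearly equal size by Gata3 per 10000 UMIs, and values run from the lowest to the highest bin, as a description with no test. Pmaip1 stood at 47.9, 79.0, 94.1 and 164 CPM in Crect lacZ bins and at 45.3, 101, 179 and 260.0 CPM in wild-type bins. Gata2 stood at 69.4, 95.5, 116 and 135 CPM in Crect lacZ bins and at 43.2, 76.2, 104 and 128 CPM in wild-type bins. Both were higher in each successive bin of each library.

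Cxxc4, Id1, Aldh1a2, an enzyme that makes retinoic acid, and Alx1, a homeobox gene of the frontonasal crest, had that same order in both libraries. Id1 stood at 346 and 506 CPM in the lowest and highest Crect lacZ bins and at 318 and 614 CPM in the wild-type ones. Aldh1a2 stood at 6.78 and 34.1 CPM in the lowest and highest Crect lacZ bins and at 2.13 and 19.1 CPM in the wild-type ones.

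Other genes ran the opposite way between the ends. The ligand Bmp4 stood at 245 and 136 CPM in the lowest and highest Crect lacZ bins and at 201 and 147 CPM in the wild-type ones. Dlx5, a homeobox gene of the facial prominences, stood at 62.6 and 27.6 CPM in the lowest and highest Crect lacZ bins and at 61.2 and 23.9 CPM in the wild-type ones. Lhx8, a LIM-homeobox gene of maxillary mesenchyme, stood at 145 and 79.9 CPM in the lowest and highest Crect lacZ bins and at 172 and 114 CPM in the wild-type ones. Msx1 stood at 1398, 1410.4, 1331 and 1287 CPM in Crect lacZ bins and at 1634, 1747, 1629 and 1564 CPM in wild-type bins, a narrow range. Median depth ran along with the bins, at 19267 and 14104.5 UMIs in the lowest and highest Crect lacZ bins and 16163 and 10963.5 in the wild-type ones, and its part was not tested.

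**Figure D2:**
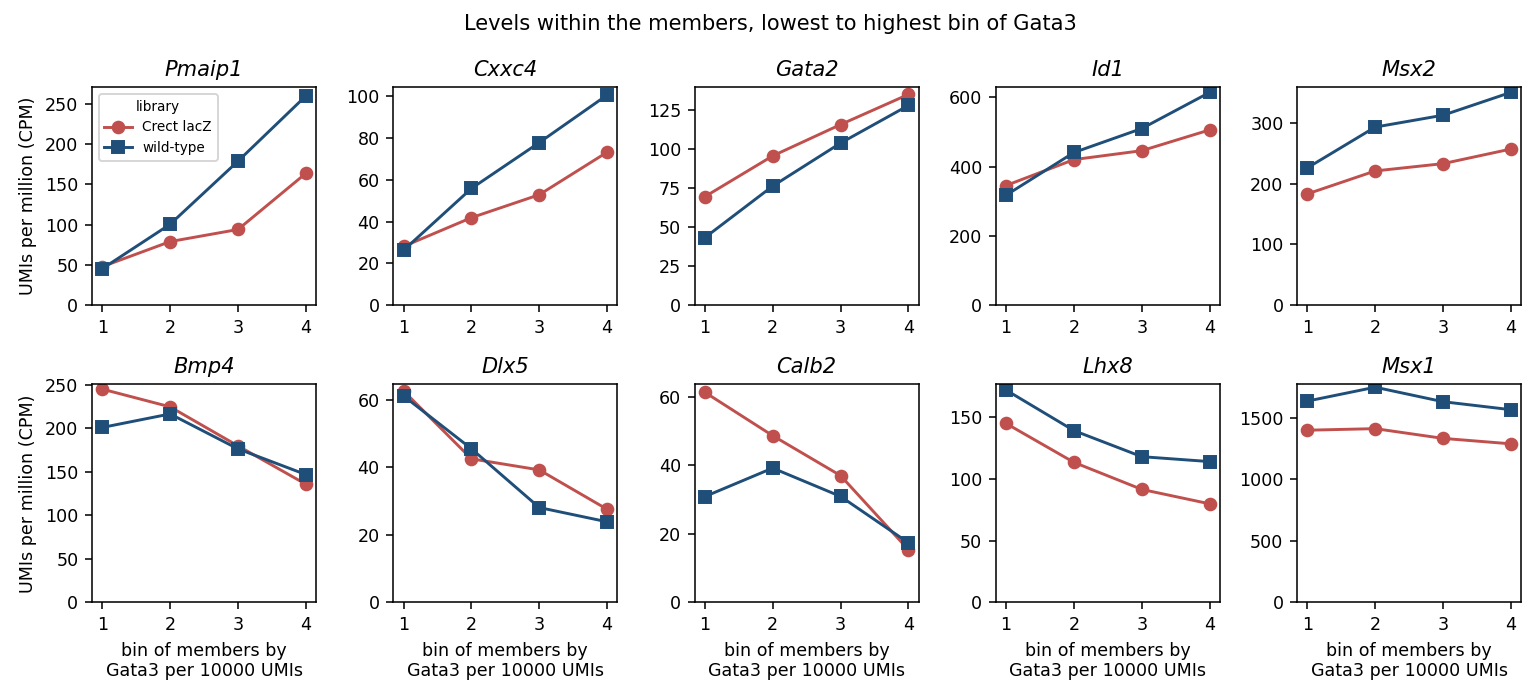
Levels (y axis, CPM, from 0) of 10 genes in the members of each library, by bin of Gata3 per 10000 UMIs (x axis, 1 lowest to 4 highest). Pmaip1, Cxxc4, Gata2, Id1 and Msx2 are highest in bin 4 of both libraries, whereas Bmp4, Dlx5, Calb2, Lhx8 and Msx1 are lowest there.

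For tests, UMIs were summed over members and over a comparison group in each library, and edgeR's quasi-likelihood test was run on the 4 sums with the library as a block. A gene was called where its Benjamini-Hochberg adjusted p was under 0.05 and it differed at least 2-fold, and genes of the rule and label were left out of counts. Members and comparison cells were divided by counts of the rule's genes in the same cells, so genes that vary with those genes differ partly by that choice. The p-values rest on 2 libraries of pooled embryos, and the spread of each gene was drawn largely from all genes together. A small p therefore does not by itself show that a difference repeats in both libraries. Of the 229 genes called against other mesenchyme, 221 had the same direction in both. All comparisons share the sums of the members. Against all other mesenchyme, 59 of 14722 genes were called higher (0.401%) and 170 lower (1.15%). Without the fold threshold, 1016 genes (6.9%) were higher and 945 (6.42%) lower.

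Bmp response genes were higher in members, each by less than 2-fold. Of 16 tested, 14 were higher and 1 was lower at any fold, where 6.9% of all genes were higher and 6.42% lower. The median log2 difference was 0.41 against 0.01 over all genes tested. Msx1 stood at 1363 CPM in Crect lacZ members against 766 CPM in other mesenchyme, and at 1646 against 1178 CPM in the wild-type library. That is 1.56-fold higher (95% interval 1.43 to 1.70, edgeR adjusted p = 1.6e-07), in the same direction in both libraries.

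Dlx6, a partner of Dlx5, had the largest fold among those that passed, at 12.2 CPM in Crect lacZ members against 5.45 CPM in other mesenchyme, and at 8.44 against 4.82 CPM in the wild-type library (1.98-fold, edgeR adjusted p = 1.5e-06). Dlx5 was 1.68-fold higher. Smad9, a Bmp-activated Smad, stood at 6.44 CPM in Crect lacZ members against 4.28 CPM in other mesenchyme, and at 11.6 against 6.50 CPM in the wild-type library (1.63-fold, edgeR adjusted p = 5.7e-05). The inhibitory Smads Smad6 and Smad7 were 1.44-fold and 1.24-fold higher, and the pseudoreceptor Bambi 1.34-fold higher.

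Among Id genes, whose products block basic helix-loop-helix factors, Id1 was 1.19-fold higher, Id2 1.30-fold, Id3 1.11-fold and Id4 1.31-fold. The T-box genes Tbx2 and Tbx3 were 1.10-fold and 1.42-fold higher, and the antagonist Grem1 1.32-fold. Hand2 did not pass and stood at 0.265 CPM in Crect lacZ members against 0.130 CPM in other mesenchyme, and at 0.268 against 0.181 CPM in the wild-type library, and Hand1 was too low to be tested.

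**Figure D3:**
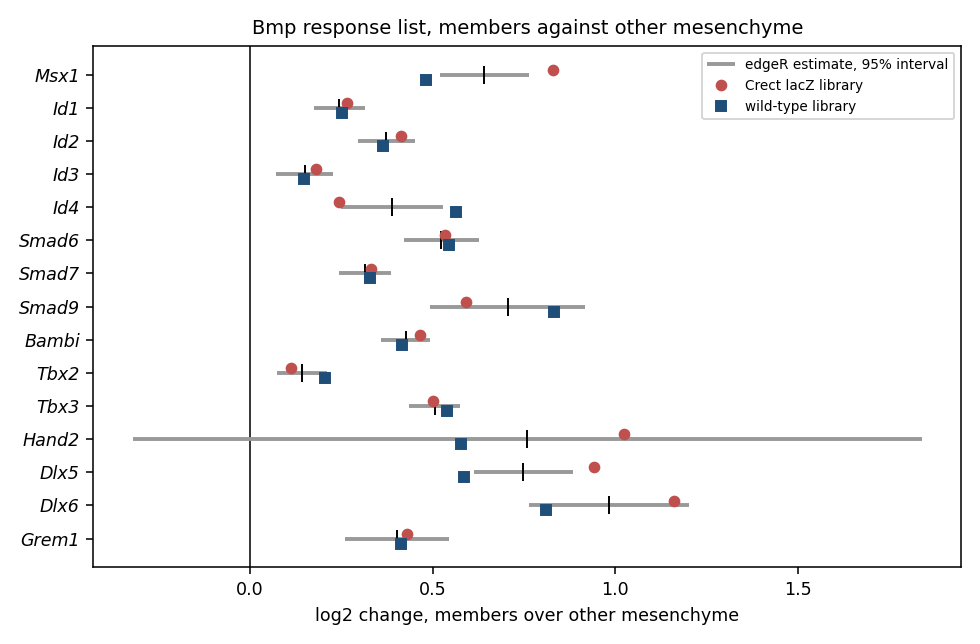
Log2 change of Bmp response genes, members over other mesenchyme (x axis), with the edgeR estimate (tick), its 95% interval (bar) and the ratio within each library (points). Intervals of 14 genes lie above 0 and that of Hand2 spans it.

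Among secreted signals, Bmp4 stood at 202 CPM in Crect lacZ members against 120.5 CPM in other mesenchyme, and at 188 against 155 CPM in the wild-type library (1.41-fold higher, edgeR adjusted p = 2.5e-05). Wnt5a, a noncanonical Wnt ligand, stood at 258 CPM in Crect lacZ members against 159 CPM in other mesenchyme, and at 275 against 186 CPM in the wild-type library (1.54-fold higher). The ligands and antagonists of the Bmp family as a list had 3 genes higher and 4 lower of 27 at any fold. Wnt ligands and modulators had 6 higher and 8 lower of 33. The shares over all genes tested were 6.9% higher and 6.42% lower.

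Retinoic acid genes had 1 call in each direction among 16 tested, where 0.401% of all genes were called higher and 1.15% lower. Aldh1a2 stood at 15.8 CPM in Crect lacZ members against 5.45 CPM in other mesenchyme, and at 8.92 against 2.94 CPM in the wild-type library (2.93-fold higher, 95% interval 2.55 to 3.36, edgeR adjusted p = 5.9e-10). In the Fgf list, 1 of 22 was called lower and 0 higher, against the same shares over all genes. The gene was Dusp6, a phosphatase induced by Fgf signalling, at 26.8 CPM in Crect lacZ members against 58.9 CPM in other mesenchyme, and at 25.2 against 62.0 CPM in the wild-type library (2.35-fold lower).

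Matrix and adhesion genes had 18 higher and 8 lower of 39 at any fold, where 6.9% of all genes tested were higher and 6.42% lower. Their median log2 difference was 0.17. Dcn, a small proteoglycan, stood at 8.35 CPM in Crect lacZ members against 3.30 CPM in other mesenchyme, and at 9.93 against 5.20 CPM in the wild-type library (2.16-fold higher, edgeR adjusted p = 1.1e-06). Lum and Postn, matrix proteins of connective tissue, were 1.74-fold and 1.70-fold higher.

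Of genes in no list, Calb2, a calcium-binding protein, stood at 42.9 CPM in Crect lacZ members against 16.7 CPM in other mesenchyme, and at 30.1 against 15.1 CPM in the wild-type library (2.26-fold higher, edgeR adjusted p = 2.0e-10). Rerg, a Ras-like growth inhibitor, was 2.19-fold higher and Adra1b, an adrenergic receptor, 2.68-fold. The transcription factor Klf4, which belongs to the list of genes that respond to tissue dissociation, was 1.98-fold higher. Of that list 4 genes were higher and 3 lower of 23 at any fold, where 6.9% and 6.42% of all genes were.

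Facial patterning factors contributed to the lower side. Of 58 tested, 16 were called lower and 0 higher, where 1.15% of all genes tested were called lower and 0.401% higher. At any fold 22 were lower and 15 higher, where 6.42% of all genes were lower and 6.9% higher. Foxc2, a forkhead factor, stood at 1.35 CPM in Crect lacZ members against 7.75 CPM in other mesenchyme, and at 0.567 against 4.62 CPM in the wild-type library (6.54-fold lower, edgeR adjusted p = 7.7e-10). Ebf1, a helix-loop-helix factor, stood at 13.8 CPM in Crect lacZ members against 47.9 CPM in other mesenchyme, and at 5.70 against 27.6 CPM in the wild-type library (3.98-fold lower).

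The odd-skipped genes Osr1 and Osr2 were 4.74-fold and 2.43-fold lower, and the homeobox genes Barx1 and Lhx6 4.63-fold and 3.21-fold. Foxp1 was 2.51-fold lower and Pax9, a paired-box factor of palate and teeth, 2.41-fold. Tcf15, which is not in the list of patterning factors, was 2.90-fold lower. Cells over the limits for Shox2, Gsc, Pax7, Emx2 or Sox9 stand only on the comparison side, and their part in these lower levels was not tested. In the next comparison, with the exclusions on both sides, Lhx6, Barx1, Osr1, Osr2, Foxc2, Foxp1 and Ebf1 were again called lower. Pax9 was higher there.

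To hold the exclusions equal, members were set against the 424 Crect lacZ and 607 wild-type Gata3-negative cells. There 77 of 13589 genes were called higher (0.567%) and 582 lower (4.28%), and at any fold 747 were higher (5.5%) and 1058 lower (7.79%). Their median depths were lower than those of members, at 14361 UMIs in Crect lacZ and 12050 in wild-type.

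Genes of blood and vessel cells led the lower side. Endothelial markers summed to 43.6 CPM in Crect lacZ members against 366 CPM in Gata3-negative cells, and to 58.3 against 243 CPM in the wild-type library. Erythroid markers summed to 2766 CPM in Crect lacZ members against 22647 CPM in Gata3-negative cells, and to 13322 against 62752 CPM in the wild-type library, and macrophage markers to 14.2 CPM in Crect lacZ members against 86.2 CPM in Gata3-negative cells, and to 11.9 against 97.3 CPM in the wild-type library. Kdr, a receptor of endothelium, was 6.82-fold lower and Hba-a1, an alpha globin, 7.79-fold lower. When cells with such markers were left out on both sides, 97 of 13248 genes were called lower and 80 higher, an alternative chosen after the data were seen.

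Gata2 was higher in members than in Gata3-negative cells. It stood at 100.4 CPM in Crect lacZ members against 28.5 CPM in Gata3-negative cells, and at 81.7 against 34.8 CPM in the wild-type library (2.68-fold higher, 95% interval 2.19 to 3.26, edgeR adjusted p = 1.1e-04). Against all other mesenchyme it did not pass, at 100.4 CPM in Crect lacZ members against 104 CPM in other mesenchyme, and at 81.7 against 77.5 CPM in the wild-type library (edgeR adjusted p = 0.98). Gata4, Gata5 and Gata6 were too low to be tested against Gata3-negative cells.

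The Gata cofactor Zfpm1 stood at 12.5 CPM in Crect lacZ members against 12.9 CPM in Gata3-negative cells, and at 14.1 against 10.0 CPM in the wild-type library and did not pass (edgeR adjusted p = 0.58). With other cell types left out it was called higher, at a log2 difference of 1.06 (edgeR adjusted p = 4.8e-06). Its relative Zfpm2 was called lower, on 4 UMIs in Crect lacZ members against 8 in Gata3-negative cells, and on 8 against 6 UMIs in the wild-type library (edgeR adjusted p = 0.034). With DESeq2 it did not pass (adjusted p = 0.52).

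Bmp response genes were again higher, 14 of 15 at any fold with 1 past 2-fold, and a median log2 difference of 0.67 against 0.01 over all genes. Over all genes tested 5.5% were higher at any fold. The count was 14 of 15 with other cell types left out, where 557 of 13248 genes were higher. In cells of middle depth it was 11 of 15, where 330 of 12409 genes were. Smad9 stood at 6.44 CPM in Crect lacZ members against 2.50 CPM in Gata3-negative cells, and at 11.6 against 2.86 CPM in the wild-type library (3.16-fold higher, edgeR adjusted p = 0.001). Msx1 stood at 1363 CPM in Crect lacZ members against 538 CPM in Gata3-negative cells, and at 1646 against 961 CPM in the wild-type library (1.96-fold higher).

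Among Bmp ligands and antagonists, 4 of 26 were called higher and 3 lower, where 0.567% of all genes tested were called higher and 4.28% lower. With other cell types left out, 2 of 26 were called higher and 1 lower, where 80 of 13248 genes were called higher and 97 lower. Bmper, a secreted Bmp modulator, stood at 15.6 CPM in Crect lacZ members against 1.91 CPM in Gata3-negative cells, and at 18.9 against 4.29 CPM in the wild-type library (5.13-fold higher, edgeR adjusted p = 9.3e-05). Gdf6, a ligand of the family, stood at 12.3 CPM in Crect lacZ members against 1.76 CPM in Gata3-negative cells, and at 4.12 against 1.67 CPM in the wild-type library (4.19-fold higher). With other cell types left out their log2 differences were 2.21 and 2.02. Against all other mesenchyme Gdf6 was not higher in members. It stood there at 12.3 against 16.4 CPM in the Crect lacZ library and at 4.12 against 4.32 CPM in the wild-type library. Bmp4 did not pass, at 202 CPM in Crect lacZ members against 120.0 CPM in Gata3-negative cells, and at 188 against 179.6 CPM in the wild-type library (edgeR adjusted p = 0.19).

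Pdlim3, a PDZ and LIM domain protein of the cytoskeleton, stood at 32.0 CPM in Crect lacZ members against 4.99 CPM in Gata3-negative cells, and at 21.0 against 4.41 CPM in the wild-type library (5.24-fold higher, 95% interval 4.18 to 6.58, edgeR adjusted p = 1.3e-05). Rerg was 3.78-fold higher. Unc5c, a netrin receptor, stood at 48.9 CPM in Crect lacZ members against 15.4 CPM in Gata3-negative cells, and at 61.0 against 19.2 CPM in the wild-type library (2.98-fold higher), and Unc5b was 2.07-fold higher. Aldh1a2 was 4.88-fold higher, Adra1b 3.07-fold, Calb2 2.29-fold and Dcn 2.17-fold. Klf4 and the zinc-finger gene Tshz2 were 2.09-fold and 2.13-fold higher. The frontonasal homeobox gene Alx1 was 1.93-fold higher.

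Patterning factors had 15 of 57 called lower and 1 higher, where 4.28% of all genes tested were called lower and 0.567% higher. With other cell types left out these were 14 and 0, where 97 of 13248 genes were called lower and 80 higher. Ebf1 stood at 13.8 CPM in Crect lacZ members against 53.6 CPM in Gata3-negative cells, and at 5.70 against 23.4 CPM in the wild-type library (4.18-fold lower, edgeR adjusted p = 4.4e-06). Osr1 stood at 3.12 CPM in Crect lacZ members against 15.4 CPM in Gata3-negative cells, and at 1.58 against 4.77 CPM in the wild-type library (4.26-fold lower). Barx1 was 6.61-fold lower, Lhx6 5.85-fold, Foxp2 2.36-fold and Foxp1 2.30-fold. Pax9 went the other way here, 1.63-fold higher at 51.7 CPM in Crect lacZ members against 30.7 CPM in Gata3-negative cells, and at 14.6 against 8.35 CPM in the wild-type library. The Bmp and Wnt modulator Sostdc1 was 2.55-fold lower and the growth factor Igf1 2.01-fold lower.

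Members with 2 or more UMIs of Lhx6 plus Lhx8 and 0 of Pax3, called maxillary-gene members, were set against members with 2 or more of Pax3 and 0 of Lhx6 plus Lhx8, called nasal-gene members. The first numbered 241 in Crect lacZ and 215 in wild-type, and the second 372 and 567. In maxillary-gene members 173 of 11343 genes were called higher (1.53%) and 113 lower (0.996%), and at any fold 438 (3.86%) and 423 (3.73%). This fit took the spread of each gene from all genes together.

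Hedgehog pathway genes had 5 of 12 called higher and 1 lower, where 1.53% of all genes tested were called higher and 0.996% lower. The receptor Ptch1, itself a target of the pathway, stood at 86.0 CPM in Crect lacZ maxillary-gene members against 22.7 CPM in nasal-gene members, and at 83.7 against 21.9 CPM in the wild-type library (3.80-fold higher). The activator Gli1 was 2.38-fold higher. Foxf1, a forkhead gene that responds to Hedgehog in facial mesenchyme, stood at 34.9 CPM in Crect lacZ maxillary-gene members against 2.15 CPM in nasal-gene members, and at 23.6 against 1.18 CPM in the wild-type library (17.3-fold higher, 95% interval 12.2 to 24.5), and Foxf2 was 13.1-fold higher. The Fgf list had 4 of 17 higher and 1 lower, with Dusp6 3.24-fold higher.

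Dlx5 stood at 70.7 CPM in Crect lacZ maxillary-gene members against 7.61 CPM in nasal-gene members, and at 57.2 against 12.7 CPM in the wild-type library (6.25-fold higher). Epha3, an Eph receptor, and Lgr5, a receptor for R-spondins, were 10.00-fold and 9.39-fold higher. Irx5, an Iroquois homeobox gene, stood at 17.4 CPM in Crect lacZ maxillary-gene members against 129.8 CPM in nasal-gene members, and at 16.8 against 148 CPM in the wild-type library (8.05-fold lower), and Irx3 was 6.54-fold lower. Smoc2, a matrix protein, was 9.90-fold lower and Foxp2 6.41-fold.

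The genes that describe all members are given on this axis as values. Gata3 stood at 338 CPM in Crect lacZ maxillary-gene members against 326 CPM in nasal-gene members, and at 311 against 370.0 CPM in the wild-type library. Msx2 stood at 228 CPM in Crect lacZ maxillary-gene members against 169.7 CPM in nasal-gene members, and at 271 against 239 CPM in the wild-type library. Cxxc4 stood at 39.6 CPM in Crect lacZ maxillary-gene members against 75.4 CPM in nasal-gene members, and at 48.1 against 88.4 CPM in the wild-type library, the lower value in maxillary-gene members of both libraries. Gata2 did not pass, at 87.2 CPM in Crect lacZ maxillary-gene members against 76.1 CPM in nasal-gene members, and at 65.9 against 89.9 CPM in the wild-type library (edgeR adjusted p = 0.63), while Id1 was 1.60-fold lower and Msx1 1.55-fold higher.

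**Figure D4:**
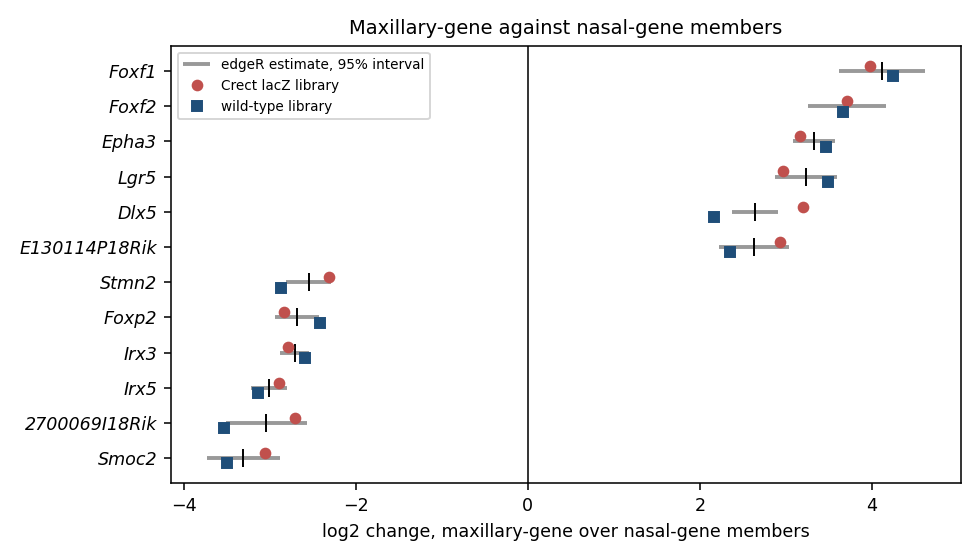
Log2 change of the 6 largest named differences in each direction, maxillary-gene over nasal-gene members (x axis), with the edgeR estimate (tick), its 95% interval (bar) and the ratio within each library (points). Foxf1 and Foxf2 lie highest and Smoc2 lowest, and for all 12 genes both libraries lie on the same side of 0.

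Members were also set against mesenchyme gated on other regional genes with at most 1 Gata3 UMI. The mean over libraries of the Spearman correlation of expression across genes, which are not independent replicates, was 0.989 for Lhx8, 0.981 for Shox2, 0.974 for both Pax7 and Gsc, 0.966 for Emx2 and 0.942 for Sox9, whose wild-type group held 14 cells. The rule limits the genes of all these groups except Lhx8 in members, and in wild-type the summed UMIs of the groups follow the same order, at 6196895 for Lhx8, 5102598 for Shox2, 2813182 for Pax7, 1836093 for Gsc, 975638 for Emx2 and 207030 for Sox9, so the order of likeness cannot be told apart from depth and the rule. Gata3 was limited in these groups, so genes that vary with it differ partly by that choice. Against 256 Crect lacZ and 419 wild-type Lhx8 cells, 97 of 13280 genes were called higher (0.73%) and 51 lower (0.384%).

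Gata2 stood at 100.4 CPM in Crect lacZ members against 32.3 CPM in Lhx8 cells, and at 81.7 against 30.2 CPM in the wild-type library (2.79-fold higher, edgeR adjusted p = 2.5e-07). Pdlim3 was 5.52-fold higher, Bmper 5.83-fold and Rerg 3.32-fold. Prdm16, a zinc-finger factor, was 2.84-fold higher and Cntfr, a cytokine receptor subunit, 3.64-fold. Cxcl14, a chemokine, stood at 209 CPM in Crect lacZ members against 492 CPM in Lhx8 cells, and at 312 against 817 CPM in the wild-type library (2.57-fold lower, edgeR adjusted p = 2.7e-09). Sostdc1 was 3.19-fold lower and Foxf2 2.57-fold. Bmp response genes had 5 higher and 3 lower of 15 at any fold, where 330 of all genes were higher (2.48%) and 399 lower (3%).

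**Figure D5:**
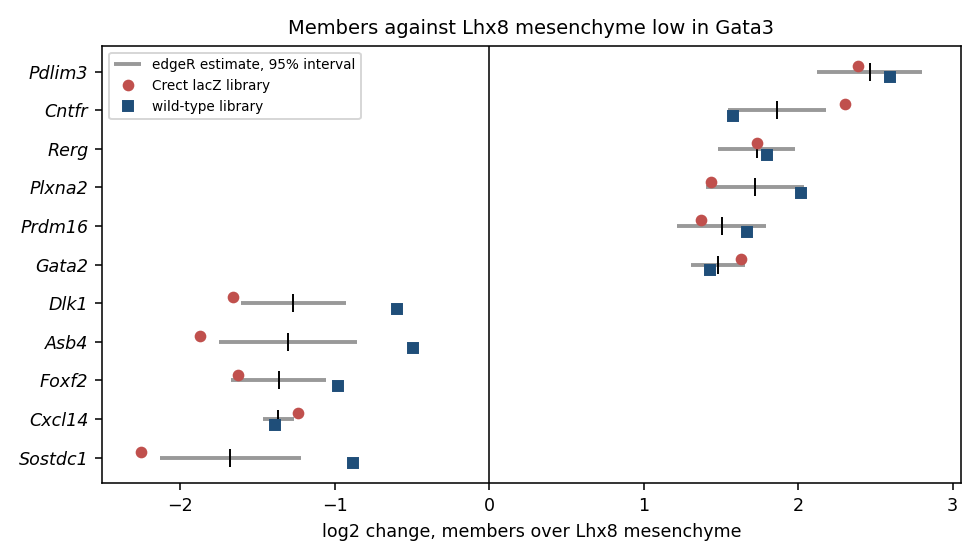
Log2 change of named genes with large called differences in each direction, members over Lhx8 mesenchyme with at most 1 Gata3 UMI (x axis), with the edgeR estimate (tick), its 95% interval (bar) and the ratio within each library (points). Pdlim3 lies highest and Sostdc1 lowest, and the libraries lie far apart for Sostdc1, Asb4 and Dlk1.

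Against 152 Crect lacZ and 310 wild-type Shox2 cells, 339 of 13349 genes were called higher (2.54%) and 130 lower (0.974%). Calb2 stood at 42.9 CPM in Crect lacZ members against 1.23 CPM in Shox2 cells, and at 30.1 against 1.37 CPM in the wild-type library (25.5-fold higher, 95% interval 18.1 to 35.9, edgeR adjusted p = 2.0e-11), on 4 and 7 UMIs in the Crect lacZ and wild-type Shox2 cells. Nbl1, a secreted Bmp antagonist, stood at 290.0 CPM in Crect lacZ members against 45.9 CPM in Shox2 cells, and at 319 against 57.03 CPM in the wild-type library (5.66-fold higher). Gata2 was 5.74-fold higher and Pdlim3 9.61-fold. Among the remaining groups, Gata2 was called higher in members against Emx2 cells but not against Pax7, Gsc or Sox9 cells. Osr2 stood at 12.3 CPM in Crect lacZ members against 94.2 CPM in Shox2 cells, and at 7.52 against 74.3 CPM in the wild-type library (9.03-fold lower), and Foxf1 and Foxf2 were 3.98-fold and 4.71-fold lower. Bmp response genes had 13 higher and 1 lower of 15 at any fold, where 962 of all genes were higher (7.21%) and 1162 lower (8.7%).

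Between genotypes there is 1 library each, so values are given with exact Poisson 95% intervals, which cover counting error only, and no test was made. Gata3 stood at 315 CPM in Crect lacZ members against 329.6 CPM in wild-type members, a ratio of 0.956 (0.931 to 0.982), and its ratio in other mesenchyme was 1.26. A fixed count of Gata3 UMIs chose the members, whose median depth was 16658 UMIs in Crect lacZ and 12727.5 in wild-type. Both Gata3 ratios therefore depend on the rule and on depth. Msx2 stood at 219.5 CPM in Crect lacZ members against 286 CPM in wild-type members, a ratio of 0.767 (0.744 to 0.791), and at 0.672 as the ratio in other mesenchyme. Pmaip1 stood at 90.6 CPM in Crect lacZ members against 132 CPM in wild-type members, a ratio of 0.688 (0.657 to 0.721). Gata2 stood at 100.4 CPM in Crect lacZ members against 81.7 CPM in wild-type members, a ratio of 1.23 (1.17 to 1.29). In other mesenchyme the ratio was 0.779 for Pmaip1 and 1.34 for Gata2. Among these genes, Gata2 alone was above 1 in members, and its ratio was above 1 in other mesenchyme too.

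Of 11700 genes with 100 or more UMIs in members, 70 were 2-fold or more higher and 202 lower in Crect lacZ members, and 51 and 119 of these were so in other mesenchyme too. Pax9 stood at 51.7 CPM in Crect lacZ members against 14.6 CPM in wild-type members, a ratio of 3.53 (3.19 to 3.91), with a ratio of 2.75 in other mesenchyme. Mki67, a proliferation marker, stood at 114 CPM in Crect lacZ members against 214 CPM in wild-type members, a ratio of 0.530 (0.510 to 0.551), with 0.566 in other mesenchyme. Genotype, pool of embryos and library cannot be told apart here.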

How the data were processed

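Gene-by-cell UMI counts of 2 libraries were used, with raw counts deposited by the authors; per the submitters' processing notes they were made with Cell Ranger 2.0 on build mm10. Whether doublets were removed before deposit was not stated in the labels. Cells were gated and summed per library as described above, and the sums were tested with edgeR 4.0.16 in R 4.3.3 (trimmed-mean normalisation, low-count filter, library as block, 1 residual degree of freedom). DESeq2 1.42.0 was an alternative, as were other thresholds of Gata3 and of mitochondrial share, cells of middle depth, removal of the 6% of barcodes with the highest Scrublet scores, and leaving out a library. The fits were tested on simulated data.

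Members and lists were chosen with earlier results of these data known. The named genes were those of the rule and label, all Bmp response and Gata genes, up to 3 per direction of each other list and the largest called changes, at 20 CPM or more, and 31 further genes were added after values were seen. Of 28000 gene IDs, 98.7% matched GENCODE vM21. Depth was 126638790 to 127765199 UMIs per library. Some genes are not reported here, and they stay in the fits and in the counts over lists.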

Additional observations from a re-analysis of the deposited data

Results flagged for a closer look

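Some genes lay above 1-fold in one library and below it in the other, and these differences between libraries were not tested. Members over other mesenchyme, the Crect lacZ and wild-type folds were 0.511 and 1.39 for Lgr5, 1.12 and 0.899 for Lhx8, 1.31 and 0.891 for Stmn2, a neuronal tubulin regulator, and 0.618 and 1.64 for Tgfb1. Members over Gata3-negative cells, the folds were 1.31 and 0.923 for Cxcl14, 0.800 and 1.27 for Epha3 and 0.664 and 1.29 for Foxf2.

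The platelet gene Pf4 had folds of 0.201 in Crect lacZ and 5.32 in wild-type, members over other mesenchyme. In wild-type members it had 4494 UMIs in 268 cells, 37.3% of them in 1 cell. In Crect lacZ other mesenchyme 74.8% of its 1162 UMIs were in 1 cell.

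Transgene RNA was outside the comparisons. Crect lacZ members held 26 UMIs of Cre in 25 cells (1.29%, Clopper-Pearson 95% interval 0.833 to 1.89) and 58 UMIs of the lacZ feature in 50 cells (2.57%, 1.91 to 3.38). In Crect lacZ cells with 3 or more Epcam UMIs the shares were 57.9% and 31.8%. In wild-type members both were found in 0 of 2398 cells, which allows up to 0.154% of cells with a UMI and sets no limit on cells that express them.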

How the results depend on the processing

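No paired analysis was possible because each genotype has 1 library and its replicate number is only a name. Calls are higher then lower. DESeq2 called 15 and 47 against other mesenchyme, 36 and 334 against Gata3-negative cells, 54 and 44 between maxillary-gene and nasal-gene members, 40 and 20 against Lhx8 cells and 136 and 78 against Shox2 cells. Without the library as a block, edgeR called 0 and 0 against other mesenchyme (484 genes at unadjusted p under 0.05), 0 and 0 against Gata3-negative cells (1238), 17 and 11 in the split, 0 and 0 against Lhx8 cells (511) and 30 and 18 against Shox2 cells. Cells of middle depth gave 34 and 109 against other mesenchyme, 111 lower against Gata3-negative cells and 62 higher against Lhx8 cells. A minimum of 3 Gata3 UMIs gave 124 higher against Gata3-negative cells, and leaving out other cell types gave 97 lower. Gata3-negative cells as the comparison group gave 582 lower. Shares of members were 28.8% in Crect lacZ and 29.2% in wild-type at 3 or more Gata3 UMIs, 43.2% and 48.2% at 1 or more, and 25.6% and 26.7% after thinning.

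Directions turned for some genes, on the log2 scale. Against other mesenchyme, the Gata3-negative group gave Gata2 1.42, Gdf6 2.07, Pax9 0.71 and Tgfb1 -1.63. Leaving out other cell types there gave Hba-a2 0.019, Hba-x 0.013, Hbb-bs 0.22 and Ppbp -0.38, and middle depth gave Ppbp -0.71. Against Gata3-negative cells, middle depth gave Aplnr 0.15, Cldn5 0.13, Ppbp -0.88 and Tgfb1 0.80. Leaving out other cell types gave Hbb-bs 0.11, Icam2 0.30, Ppbp -0.27 and Tgfb1 0.69, and removing doublets gave Pf4 1.61. Leaving out a library, Ppbp ranged from -0.78 to 3.57 against other mesenchyme and from -0.73 to 2.50 against Gata3-negative cells. The cause was not tested. With DESeq2, 8 of 28 named calls against other mesenchyme and 10 of 49 against Gata3-negative cells kept direction but lost the threshold. Of 48 named calls against Gata3-negative cells, 15 lost it and 4 reversed with other cell types left out, and 8 lost it and 4 reversed at middle depth.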

Other observations

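Genes of the G2 and M phases of the cell cycle were higher in members than in Gata3-negative cells, 30 of 52 tested at any fold with a median log2 difference of 0.25 and 0 past 2-fold, where 747 of all 13589 genes tested were higher (5.5%). The count was 35 with other cell types left out, where 557 of 13248 genes were higher, and 18 in cells of middle depth, where 330 of 12409 were. Against all other mesenchyme, 14 of the 52 were lower and 0 higher, where 945 of 14722 genes were lower (6.42%). Genes of hypoxia and glycolysis had 10 of 22 lower and 0 higher against Gata3-negative cells, where 1058 of all 13589 genes tested were lower (7.79%). The part of depth in these values was not tested.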
